A study of Homo sapiens with 72 samples.

Results

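The genes described here are 10 ERK pathway output and feedback genes, DUSP4, DUSP5, DUSP6, SPRY2, SPRY4, SPRED1, SPRED2, ETV4, ETV5 and PHLDA1. They were chosen by name, as the 10 matching entries among the 44659 gene names of a QuantSeq count table. No value served as a filter, but the choice was made with earlier results of these data known. QuantSeq libraries hold 1 tag near the 3′ end of each polyadenylated RNA, so levels are compared between libraries for a given gene and not between genes. The RNA came from the cytoplasm of A375, an established human melanoma line that carries an activating BRAF mutation.

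The ERK cascade runs from receptor tyrosine kinases through RAS, RAF and MEK to ERK, which enters the nucleus and switches on genes that restrain the same cascade. The DUSP proteins of this group remove phosphate from ERK and related kinases, the Sprouty (SPRY) and SPRED proteins act further up at the level of receptors and RAS, and ETV4 and ETV5 are transcription factors through which ERK output reaches its target genes. In cells with mutant BRAF the cascade is active without a receptor signal, and the mRNAs of these genes are widely read as a gauge of ERK output. Many of them are known to be short-lived, which lets the feedback follow the signal closely.

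The libraries analysed here come from 2 experiments of 36 libraries each, with 18 libraries per condition. In the first, cells had received a control siRNA against luciferase (siGL2) or a pool of 2 siRNAs against CTU2 (siCTU2) 42 h earlier; CTU2 encodes a subunit of the enzyme that thiolates the wobble uridine of some tRNAs. In the second, cells had spent 18 h in glutamine-free (mQ) or control medium (pQ). All cells were then treated with the transcription inhibitor triptolide at 25 µM, alone (T arm) or with the translation inhibitor cycloheximide at 100 µg/ml (TCHX arm), and harvested at 0, 3 or 5 h, which gave 24 groups of 3 replicates. All groups are 1 cell line under 1 dose of each inhibitor, and the labels of these 72 libraries name no inhibitor of BRAF, MEK or ERK; ERK activity itself was not measured in them. The sources do not say that the replicates were separate cultures, so p-values measure the spread between these libraries, which may be technical. In such bulk samples, fewer cells with an RNA and less of it per cell cannot be told apart.

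Libraries held 5987692 to 15534331 counts. CTU2 was measured first as a check of the labels: it lay between 0.133 and 2.95 CPM (counts scaled to an equal library total) in 17 siCTU2 libraries, between 17.5 and 35.0 CPM in siGL2, and at 10.4 CPM in replicate 3 of the libraries labelled siCTU2 TCHX 5 h. Together with replicate 3 of mQ T 5 h and of pQ TCHX 0 h it stood apart: these libraries detected 19896 to 20364 genes, whereas the remaining 69 detected 15507 to 17495. Of 10 markers of other cell types, the leukocyte genes PTPRC and CD3E lay between 31.1 and 32.6 CPM in these 3 libraries and at no more than 0.759 and 0.304 CPM elsewhere. COL1A1, a fibroblast collagen, lay between 1.60 and 2.57 CPM in them against at most 1.17 CPM elsewhere, and the other 7 markers were no higher in them than in the rest. The summed level of the 10 markers was 66.4 to 68.0 CPM in the 3 libraries and 0 to 2.64 CPM in the other 69. Fits of decay, cycloheximide differences and interactions that rest on these libraries were also run without them. TDD indices, described further on, were not recomputed without these 3 alone. Group means of percents of the 0 h level, also described further on, were taken without them, but the 0 h levels themselves were left unchanged. The pQ library enters the 0 h level behind every percent of pQ replicate 3. The part of these libraries in the results was otherwise not tested. The melanocyte-lineage markers SOX10 (25.4 to 424 CPM), MITF (30.8 to 377 CPM) and S100B (162 to 496 CPM) were found in all libraries, while the pigment genes MLANA and TYR stayed at or below 1.47 CPM. All 10 feedback genes had enough counts to be tested in every comparison.

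In the GRCh38 annotation the 10 genes do not overlap each other. The mitogen-activated protein kinase phosphatases are DUSP4, DUSP5 (chromosome 10, 110497907 to 110511533, plus strand) and DUSP6 (chromosome 12, 89347235 to 89352501, minus strand). The Sprouty genes are SPRY2 (chromosome 13, 80335976 to 80341126, minus strand) and SPRY4 (chromosome 5, 142310427 to 142326455, minus strand), and the SPRED genes are SPRED1 (chromosome 15, 38252836 to 38357249, plus strand) and SPRED2 (chromosome 2, 65310851 to 65432637, minus strand). The ETS factors are ETV4 (chromosome 17, 43527844 to 43579620, minus strand) and ETV5 (chromosome 3, 186046314 to 186110318, minus strand), and PHLDA1 (chromosome 12, 76025447 to 76031776, minus strand) encodes a pleckstrin-homology-like protein induced by growth factors. Names that could share reads with them were low, with at most 20 counts for the pseudogene DUSP5P1, 15 for DUSP5-DT, 21 for the antisense gene SPRY4-AS1 and 0 for SPRY4-IT1 in any library.

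AU-rich elements in 3′ untranslated regions (3′ UTRs) are a known mark of short-lived mRNAs, so the pentamer ATTTA and the longer TTATTTATT were searched on the sense strand of the canonical 3′ UTR of each gene. The pentamer lies inside the longer motif, and each match was counted. ATTTA occurred 24 times in SPRED1, 14 times in PHLDA1, 8 times in SPRY4, 6 times in DUSP4, 5 times in SPRED2, 4 times in ETV5, 2 times in SPRY2 and 1 time in DUSP6, and it did not occur in DUSP5 or ETV4. The longer motif occurred 1 time each in DUSP4 and PHLDA1. Over 19205 genes with an annotated 3′ UTR, 67.8% held the pentamer and 8.5% the longer motif, with no matching for length. The windows shown are the 30 bases with most pentamers in 4 genes whose mRNA fell steeply after triptolide (DUSP6, SPRY2, SPRY4 and PHLDA1) and in 2 whose mRNA fell less (SPRED1 and ETV5), with ATTTA in capitals:
DUSP6 (chr12:89348102-89348131, minus strand): gtttagagctggaATTTAttataagaatgt
SPRY2 (chr13:80336122-80336151, minus strand): tagtgtaaagaatATTTAtttgaagtttta
SPRY4 (chr5:142313529-142313558, minus strand): agccacaggatggATTTAggagccactgct
PHLDA1 (chr12:76029791-76029820, minus strand): tattttgATTTAtgattATTTAttagtttt
SPRED1 (chr15:38353345-38353374, plus strand): ttaagaaagcATTTAtATTTAtatgacagc
ETV5 (chr3:186047805-186047834, minus strand): ttgtagttttggtATTTAaagcaaaaaaac
Of the 4 steeply falling genes shown, DUSP6 and SPRY2 held fewer pentamers than ETV5 and SPRED1, whereas PHLDA1 and SPRY4 held more than ETV5 and fewer than SPRED1. These counts take no account of length. Per kb of 3′ UTR, DUSP6 held 0.50, SPRY2 2.56, SPRY4 2.12, PHLDA1 3.00, ETV5 1.72 and SPRED1 4.30. By this measure SPRY2 lay above ETV5. DUSP4 and DUSP5, which also fell fast and are not shown, held 1.51 and 0 per kb. Over all genes tested, the median log2 change over 3 h of triptolide of genes with a pentamer was lower than that of genes without one, at -0.60 and -0.39 in siCTU2, -0.50 and -0.34 in siGL2, -0.73 and -0.62 in mQ and -0.74 and -0.53 in pQ, with no matching for length. Across the 10 genes, Spearman's rho between pentamers per kb of 3′ UTR and the log2 change over 3 h of triptolide given further on was -0.21 in siCTU2, 0.05 in siGL2, -0.05 in mQ and 0.05 in pQ, as a description over 10 genes that share their libraries.

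The first question was how high the feedback mRNAs stood at 0 h, before decay was followed, when CTU2 had been depleted. In siCTU2 cells the Sprouty and SPRED genes, DUSP4 and ETV5 were lower than in siGL2 cells, while DUSP5, DUSP6 and PHLDA1 were higher and ETV4 did not pass the test. The largest differences were in ETV5 and SPRY4, with log2 fold changes of -1.61 and -1.54. By edgeR's quasi-likelihood test with Benjamini-Hochberg adjustment, 3 of the 10 genes were higher and 6 lower in siCTU2, where 17.8% of the 12292 genes tested were higher and 18.2% lower. The median log2 fold change of the 10 genes was -0.42, against 0.005 over all genes tested. The 3 siCTU2 and 3 siGL2 libraries did not overlap for any of the 10 genes, 4 of which were higher and 6 lower in siCTU2; over all genes tested, 23.8% and 23.3% were separated in these directions.

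Among the genes that act at the level of receptors and RAS, SPRY4, a Sprouty protein that dampens receptor and RAS signalling, lay at 42.8, 45.00 and 47.2 CPM in siCTU2 and 126, 134 and 132 CPM in siGL2. Every siCTU2 library was far below every siGL2 library, and the log2 fold change was -1.54 (SE 0.09, adjusted p = 2.25e-10). SPRY2, its close relative, lay at 71.97, 65.7 and 65.9 CPM in siCTU2 and 108, 116 and 103 CPM in siGL2, a change of -0.69 (SE 0.09, adjusted p = 6.23e-06) on the log2 scale. SPRED1, which brings neurofibromin to RAS, lay at 108, 102 and 103 CPM in siCTU2 and 149, 141 and 146 CPM in siGL2, with a log2 fold change of -0.48 (SE 0.08, adjusted p = 7.46e-05). SPRED2, which shares that role, lay at 25.3, 22.2 and 24.6 CPM in siCTU2 and 29.6, 35.9 and 26.9 CPM in siGL2, and its groups were separated by only a small gap. Its log2 fold change of -0.36 (SE 0.14, adjusted p = 0.0480) passed the threshold narrowly, and the call was lost without replicate 1, 2 or 3 of siCTU2 (adjusted p = 0.0651, 0.147 and 0.0660), without replicate 1 or 2 of siGL2 (0.0675 and 0.239), without a filter on low counts (0.0616) and with DESeq2 (0.0582).

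The transcription factors differed from each other. ETV5, an ETS factor of the PEA3 family, lay at 61.3, 53.3 and 64.8 CPM in siCTU2 and 176, 174 and 199 CPM in siGL2. All siCTU2 libraries were below all siGL2 libraries, with a log2 fold change of -1.61 (SE 0.09, adjusted p = 2.83e-10). ETV4, of the same family, lay at 142, 147 and 138 CPM in siCTU2 and 134, 108 and 133 CPM in siGL2, with a log2 fold change of 0.19 (SE 0.09, adjusted p = 0.112). The ETV4 libraries of siCTU2 were all above those of siGL2, by a margin that did not pass the test; in the TCHX arm at 0 h the same comparison gave 0.34 (adjusted p = 0.0110).

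The phosphatases split in direction. DUSP4 (chromosome 8, 29333064 to 29350684, minus strand), a nuclear phosphatase of ERK, JNK and p38, lay at 148, 183 and 199.6 CPM in siCTU2 and 307, 263 and 321 CPM in siGL2, with a log2 fold change of -0.75 (SE 0.10, adjusted p = 9.82e-06). DUSP6, a cytoplasmic phosphatase with a strong preference for ERK, lay at 378, 313 and 325 CPM in siCTU2 and 255, 269 and 266 CPM in siGL2, with a log2 fold change of 0.36 (SE 0.08, adjusted p = 0.00125). DUSP5, a nuclear phosphatase specific to ERK, lay at 32.3, 34.2 and 31.02 CPM in siCTU2 and 20.1, 23.4 and 25.9 CPM in siGL2, with a log2 fold change of 0.49 (SE 0.13, adjusted p = 0.00739). Thus DUSP4 was lower in every siCTU2 library and the other two phosphatases were higher in every siCTU2 library. Without replicate 1 of siGL2 the DUSP5 difference was 0.39 (adjusted p = 0.0514). PHLDA1 lay at 582, 594 and 632 CPM in siCTU2 and 489, 561 and 517 CPM in siGL2, with a small log2 fold change of 0.20 (SE 0.07, adjusted p = 0.0236). Its call was lost without replicate 3 of siCTU2 (adjusted p = 0.0906), without replicate 1 or 3 of siGL2 (0.160 and 0.0771) and in the TCHX arm at 0 h, with a fold change of 0.14 (adjusted p = 0.161).

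**Figure D1:**
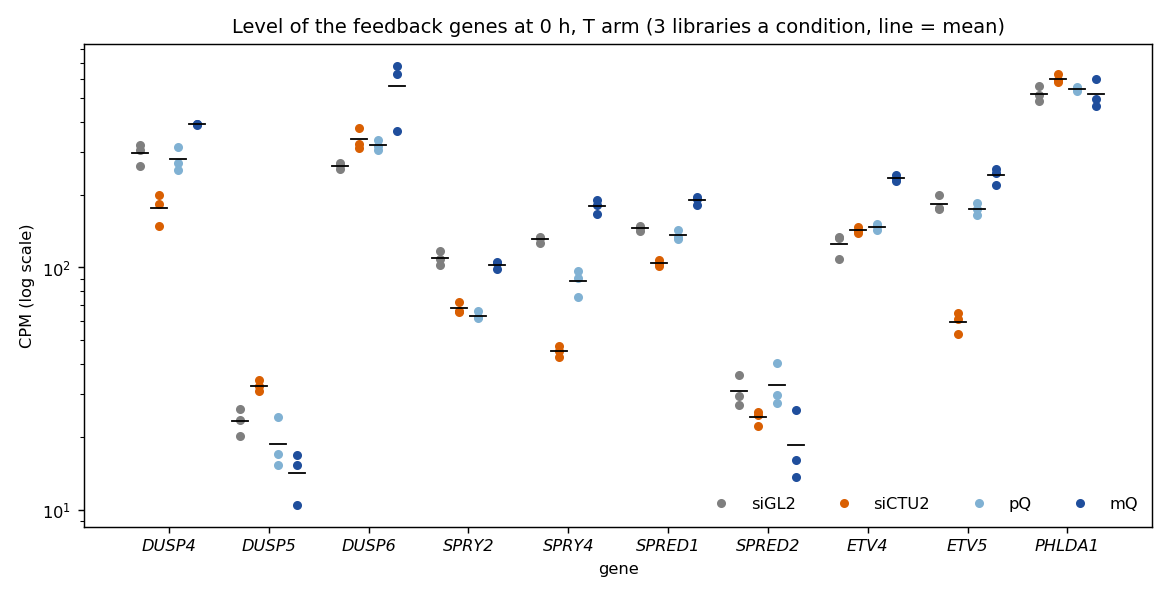
Level of each feedback gene at 0 h in the T arm, in CPM on a log axis, with 1 point per library (3 libraries per condition) and a line at the mean of each condition. SPRY4 and ETV5 show the widest gap between siCTU2 and siGL2, and SPRY4 the widest rise from pQ to mQ. Levels compare between conditions of a gene, not between genes.

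The second 0 h comparison asked how the same mRNAs stood after 18 h without glutamine. DUSP4, DUSP6, SPRY2, SPRY4, SPRED1, ETV4 and ETV5 were higher in mQ than in pQ, with log2 fold changes from 0.51 to 1.09, and SPRED2 was lower. DUSP5 (-0.36 (SE 0.23, adjusted p = 0.272)) and PHLDA1 (-0.02 (SE 0.11, adjusted p = 0.907)) did not pass the test. The 7 higher and 1 lower genes of 10 stand beside 12.5% of the 12374 genes tested that were higher and 12.4% that were lower in mQ. The median log2 fold change of the 10 genes was 0.53, against 0.01 over all genes tested. The libraries of the conditions did not overlap for 8 of the 10 genes, 7 higher and 1 lower in mQ, where 18.0% and 24.8% of all genes tested were separated in these directions.

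SPRY4 showed the largest difference, at 166, 189.7 and 182 CPM in mQ and 96.6, 75.2 and 90.8 CPM in pQ. The lowest mQ library was well above the highest pQ library, and the log2 fold change was 1.09 (SE 0.12, adjusted p = 1.41e-04). SPRY2 lay at 98.6, 104 and 105 CPM in mQ and 65.9, 61.6 and 62.5 CPM in pQ, with tight replicates in both conditions and a log2 fold change of 0.75 (SE 0.10, adjusted p = 5.26e-04). DUSP6 lay at 631, 367 and 679.6 CPM in mQ and 336, 304.7 and 316 CPM in pQ. Replicate 2 of mQ was much lower than its fellow replicates yet still above all pQ libraries, and the log2 fold change was 0.86 (SE 0.18, adjusted p = 0.00554). DUSP4 lay at 393, 392 and 386 CPM in mQ and 271, 254 and 314 CPM in pQ, with a log2 fold change of 0.53 (SE 0.10, adjusted p = 0.00387). ETV4 lay at 240.2, 233 and 227 CPM in mQ and 148, 143 and 152 CPM in pQ, and ETV5 at 245, 219 and 256 CPM in mQ and 175, 165 and 185 CPM in pQ. Both ETS factors were higher in every mQ library, by 0.71 (SE 0.09, adjusted p = 4.40e-04) and 0.51 (SE 0.10, adjusted p = 0.00488) on the log2 scale. SPRED1 lay at 182, 191 and 195 CPM in mQ and 132, 143 and 133 CPM in pQ, with a log2 fold change of 0.53 (SE 0.10, adjusted p = 0.00306).

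SPRED2 was the exception in direction, at 16.1, 13.6 and 25.9 CPM in mQ and 29.6, 40.5 and 27.6 CPM in pQ in the T arm and a log2 fold change of -0.76 (SE 0.23, adjusted p = 0.0328). In the other arm at 0 h the same gene lay at 33.2, 35.00 and 32.95 CPM in mQ and 30.6, 31.7 and 12.8 CPM in pQ. The direction was thus the opposite there, at 0.46, and at 0.14 without the pQ library that stood apart. The T arm call was also lost without replicate 1 of mQ (adjusted p = 0.126) or replicate 1 or 2 of pQ (0.0690 and 0.156), so the 0 h level of SPRED2 was not resolved between mQ and pQ. None of the libraries that stood apart entered the T arm comparisons at 0 h.

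The remaining genes of the pathway were read from fixed lists. Of 23 genes of the cascade itself, from EGFR to the RSK kinases, 20 were tested; in siCTU2 against siGL2, 6 were higher and 3 lower, with a median of 0.03. The largest rise was in EGFR, a receptor tyrosine kinase (7.69 ± 0.655 CPM against 4.01 ± 1.73 CPM, log2 fold change 0.94 (SE 0.30, adjusted p = 0.0207), with mean ± SD and n = 3 throughout these lists), and the largest fall in PEA15 (186 ± 13.5 CPM against 295 ± 13.02 CPM, log2 fold change -0.66 (SE 0.07, adjusted p = 1.54e-06)), which holds ERK in the cytoplasm. Of 22 other ERK target and feedback genes, 18 were tested; 10 were higher and 3 lower in siCTU2, with a median of 0.55. The receptor EPHA4 rose most (18.1 ± 1.37 CPM against 1.58 ± 1.11 CPM, log2 fold change 3.49 (SE 0.31, adjusted p = 8.34e-08)) and SPRY1, another Sprouty gene, fell most (4.52 ± 1.46 CPM against 12.5 ± 0.735 CPM, log2 fold change -1.45 (SE 0.24, adjusted p = 1.36e-04)). In mQ against pQ, 5 cascade genes were higher and 5 lower, with a median of 0.05. BRAF rose most (20.4 ± 0.520 CPM against 11.4 ± 0.580 CPM, log2 fold change 0.89 (SE 0.16, adjusted p = 0.00274)), and MAP2K1, which encodes MEK1, fell most (15.8 ± 8.701 CPM against 37.99 ± 7.35 CPM, log2 fold change -1.22 (SE 0.34, adjusted p = 0.0231)). Of the 18 other targets, 6 were higher and 4 lower in mQ, with a median of -0.29. EGR1, an immediate early transcription factor, rose most (112 ± 50.7 CPM against 42.8 ± 3.18 CPM, log2 fold change 1.44 (SE 0.24, adjusted p = 0.00177)), and the phosphatase gene DUSP2 fell most (2.24 ± 0.137 CPM against 6.53 ± 0.463 CPM, log2 fold change -1.48 (SE 0.29, adjusted p = 0.00380)). Both lists thus held genes that changed in each direction in both comparisons. Of 8 melanocyte-lineage and melanoma markers, 6 were tested. AXL, a receptor tyrosine kinase, rose most in siCTU2 (59.2 ± 12.4 CPM against 30.5 ± 6.95 CPM, log2 fold change 0.95 (SE 0.16, adjusted p = 1.29e-04)), and MITF, the lineage transcription factor, fell most (124 ± 21.6 CPM against 346 ± 41.05 CPM, log2 fold change -1.48 (SE 0.11, adjusted p = 7.24e-09)), with 2 markers higher and 1 lower. MITF was also the 1 marker that was lower in mQ (154 ± 32.03 CPM against 357 ± 22.6 CPM, log2 fold change -1.16 (SE 0.14, adjusted p = 2.35e-04)), where 0 were higher.

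**Figure D2:**
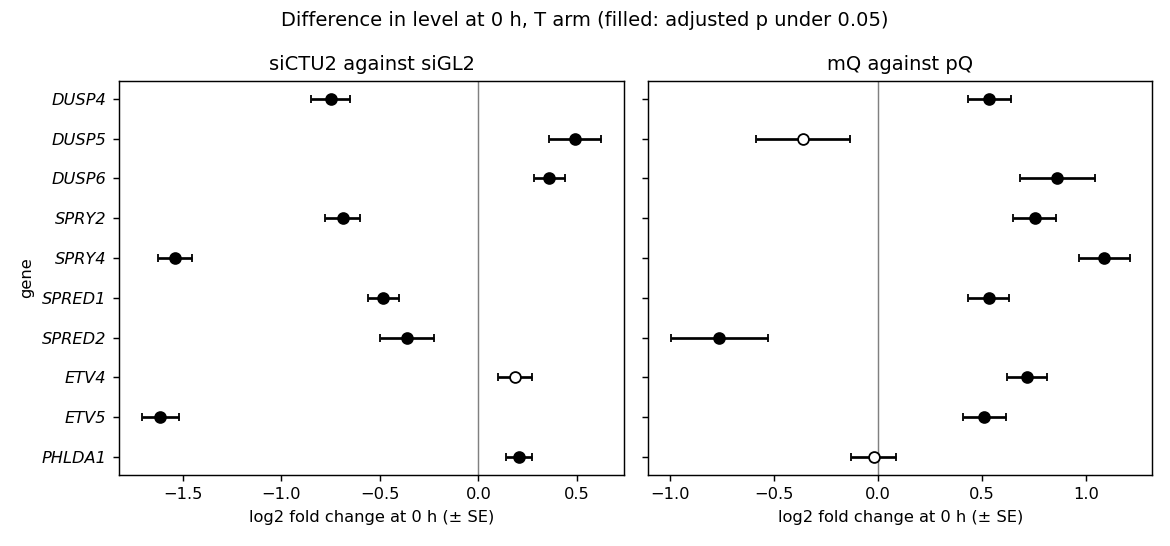
Log2 fold change at 0 h of each feedback gene, siCTU2 against siGL2 and mQ against pQ, with bars for 1 standard error; filled points had an adjusted p under 0.05 in edgeR. In siCTU2 the values run from -1.61 (ETV5) to 0.49 (DUSP5), and in mQ from -0.76 (SPRED2, reversed in the TCHX arm at 0 h) to 1.09 (SPRY4).

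The fate of each mRNA after transcription had been blocked was followed next. Counts were scaled to genes whose share of the library grew during the block, and levels are given as percent of the 0 h level of the replicate, taken as the mean of its T and TCHX libraries at 0 h. These genes were chosen separately in each experiment, so percents are not on a common scale between the siRNA and medium experiments. On this scale the median gene also fell over 3 h, with log2 changes of -0.55 in siCTU2, -0.47 in siGL2, -0.72 in mQ and -0.70 in pQ; with TMM scaling, which centres most genes, these medians were -0.0021, 0.0064, 0.0141 and 0.0044. Changes of the feedback genes are therefore read against the median gene. Where libraries are said not to overlap in these percents, the share of all genes tested that did so was not computed.

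After 3 h of triptolide alone the feedback mRNAs fell into a fast and a slow set. DUSP6, SPRY2, DUSP5, SPRY4, PHLDA1 and DUSP4 had fallen to between 0.654% and 34.8% of their 0 h level in every library of the 4 conditions. SPRED1 and SPRED2 kept 24.3% to 63.9%, and ETV4 and ETV5 kept 45.8% to 94.1%. The number of the 10 genes that fell was 8 in siCTU2, 8 in siGL2, 10 in mQ and 9 in pQ, where 36%, 28.5%, 55% and 54.5% of all genes tested fell. None of the 10 was higher at 3 h, where 1.11%, 0.981%, 1% and 0.937% of all genes were. With TMM scaling the numbers that fell were 8, 6, 6 and 6, where 1279, 1259, 981 and 1224 of all genes tested were called in either direction. The median log2 change of the 10 genes was -2.10 in siCTU2, -2.11 in siGL2, -2.89 in mQ and -2.38 in pQ. DUSP4, DUSP5, DUSP6, SPRY2, SPRY4, SPRED1 and PHLDA1 were called in all 4 conditions; with TMM scaling SPRED1 was below 0 in all 4 conditions but called only in siCTU2.

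DUSP6 fell furthest. At 3 h it stood at 1.41, 1.59 and 0.924% of its 0 h level in siGL2, 0.654, 0.946 and 0.930% in mQ and 1.55, 1.58 and 1.57% in pQ. In siCTU2 it stood at 2.96, 6.58 and 5.17%, and every one of these 3 libraries was above all siGL2 libraries. The log2 changes were -4.40 (SE 0.32, adjusted p = 2.81e-07) in siCTU2, -6.19 (SE 0.22, adjusted p = 3.30e-11) in siGL2, -6.80 (SE 1.1, adjusted p = 4.53e-04) in mQ and -6.15 (SE 0.31, adjusted p = 3.05e-09) in pQ. Between 0.19% and 0.39% of all genes tested had a lower value in these conditions. The DUSP6 values in the 3 h T libraries rested on 25 to 329 counts.

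The other two phosphatases differed in speed. DUSP5 stood at 18.4, 25.4 and 21.1% in siCTU2, 12.3, 6.19 and 5.73% in siGL2, 6.48, 3.58 and 3.17% in mQ and 4.08, 2.47 and 7.75% in pQ. The siCTU2 libraries were again above all siGL2 libraries, and the counts behind these values ran from only 4 to 133. The log2 changes of DUSP5 were -2.22, -3.62, -4.50 and -4.46. DUSP4 was retained best of the phosphatases, at 25.3 ± 2.76% in siCTU2, 32.7 ± 1.298% in siGL2, 20.03 ± 3.803% in mQ and 31.5 ± 2.85% in pQ (mean ± SD, n = 3), with log2 changes from -2.29 to -1.65. Its mean was lower in mQ than in pQ, and lower in siCTU2 than in siGL2.

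Of the Sprouty genes, SPRY2 stood at 0.957, 1.55 and 1.904% in mQ, 4.62, 6.87 and 5.92% in pQ, 4.27, 6.73 and 6.97% in siCTU2 and 7.64, 12.9 and 7.85% in siGL2. The mQ libraries all lay below the pQ libraries, and the log2 change was -6.05 (SE 0.93, adjusted p = 3.82e-04) in mQ and -4.16 (SE 0.38, adjusted p = 5.40e-07) in pQ. SPRY4 stood at 7.55, 8.59 and 6.0% in mQ and 11.1, 15.98 and 15.4% in pQ, and between 12.4% and 18.9% in the siRNA conditions. Its mQ libraries also lay below all pQ libraries, with log2 changes of -3.91 in mQ, -2.94 in pQ, -2.73 in siCTU2 and -2.57 in siGL2. PHLDA1 stood at 7.19, 9.55 and 7.94% in mQ and 11.6, 12.9 and 9.496% in pQ, where the ranges just overlapped, with log2 changes of -3.48 and -3.24. The difference between mQ and pQ did not pass the test for any of these genes, as given further on.

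SPRED1 was lower in siCTU2 than in siGL2, a difference in decay that did not pass the test given further on. It stood at 24.3, 36.2 and 32.1% in siCTU2 and 58.1, 58.9 and 50.8% in siGL2, with no overlap, and at 45.5, 40.03 and 50.03% in mQ and 54.2, 47.6 and 58.9% in pQ. The log2 changes were -1.66 (SE 0.22, adjusted p = 3.37e-05) in siCTU2 and -0.82 (SE 0.16, adjusted p = 0.00137) in siGL2, and the latter call was lost without replicate 1 (adjusted p = 0.0663). SPRED2 was at or below 63.9% of its 0 h level in every library, with log2 changes of -1.29, -0.85, -0.68 and -1.31 in siCTU2, siGL2, mQ and pQ; under TMM scaling the mQ value was 0.07. The siGL2 value did not pass the test (adjusted p = 0.0575), but did with the replicate number as a block (adjusted p = 0.00218).

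ETV4 was the most stable of the group. It stood at 82.5, 82.97 and 93.7% in siCTU2, 82.5, 92.2 and 94.1% in siGL2, 72.1, 68.6 and 78.8% in mQ and 76.7, 84.1 and 84.3% in pQ. In each condition its log2 change (-0.19, -0.15, -0.51 and -0.36 in the order given) was nearer to 0 than that of the median gene. It passed the test in mQ alone, at -0.51 (SE 0.19, adjusted p = 0.0299), and under TMM scaling was above 0 in all 4 conditions, from 0.22 to 0.36. ETV5 stood at 45.8, 61.9 and 47.6% in siCTU2 and between 57.3% and 77.1% in the other conditions. Its log2 changes were -1.14, -0.51, -0.51 and -0.57 in siCTU2, siGL2, mQ and pQ; the last 3 passed the test, and under TMM scaling the values in mQ and pQ were above 0, at 0.22 and 0.12. In siCTU2 the spread was wide (SE 0.47, adjusted p = 0.0668), and without the library that stood apart the same change was called (adjusted p = 0.00123).

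The smaller falls hung on single replicates in the medium experiment. In mQ the SPRED2 call was lost without replicate 1, 2 or 3 (adjusted p = 0.0626, 0.0965 and 0.501), and the ETV4 and ETV5 calls were lost without replicate 1 (0.132 and 0.0811) or replicate 2 (0.206 and 0.0690). In pQ the SPRED2 and ETV5 calls were lost without replicate 1 (0.0590 and 0.0985) or replicate 2 (0.0808 and 0.0647). In siGL2 the ETV5 call was lost without replicate 1 or 2 (0.107 and 0.309), and in siCTU2 the SPRED2 call was lost without replicate 1 (0.0992). The calls of DUSP4, DUSP5, DUSP6, SPRY2, SPRY4 and PHLDA1 at 3 h did not depend on any one replicate. On the fixed lists, 5 of 21, 4 of 20, 12 of 20 and 10 of 20 tested cascade genes fell over 3 h in siCTU2, siGL2, mQ and pQ, and 10, 11, 14 and 18 of the 18 other targets.

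**Figure D3:**
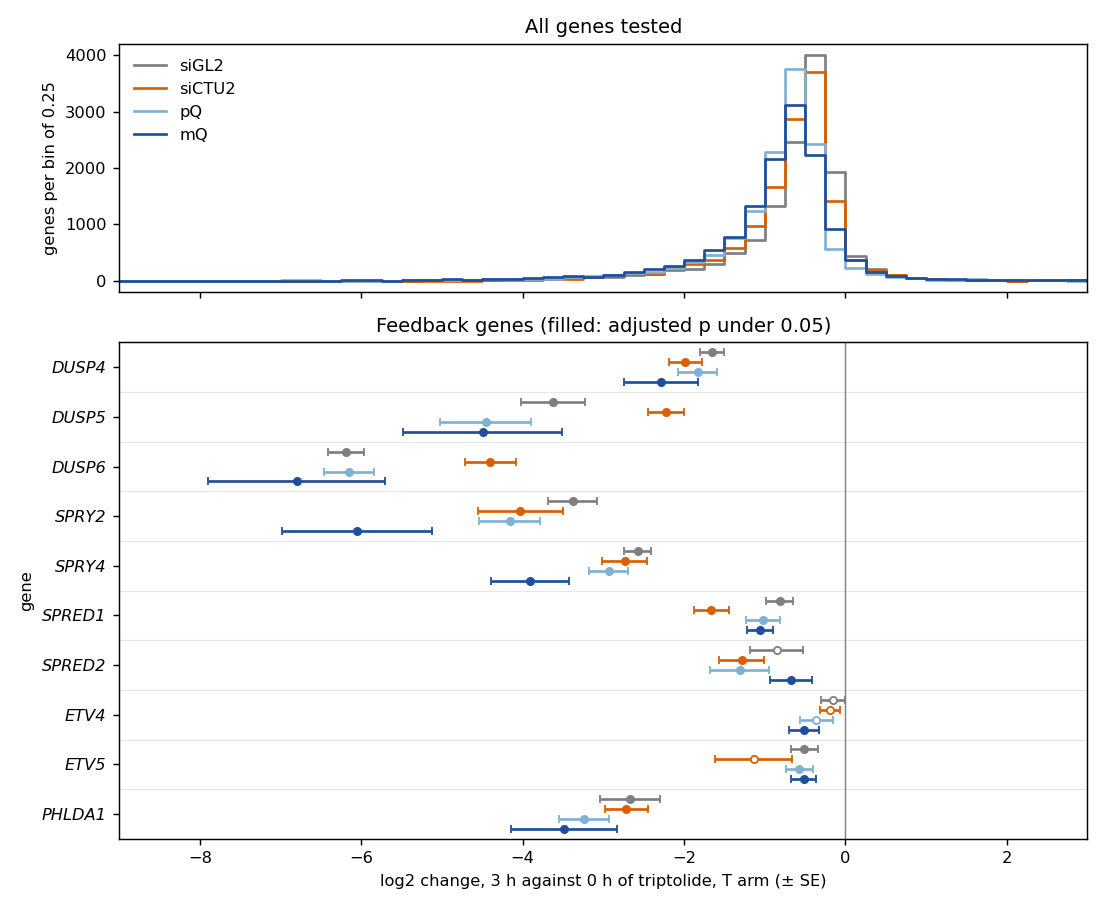
Log2 change over 3 h of triptolide in the T arm. The upper panel shows the distribution over all genes tested in each condition, and the lower panel the 10 feedback genes with bars for 1 standard error, where filled points had an adjusted p under 0.05. DUSP6, with values from -6.80 to -4.40, lies far in the lower tail, while ETV4 lies near the bulk of genes; under TMM scaling ETV4 is above 0 in all 4 conditions, ETV5 in mQ and pQ, and SPRED2 in mQ.

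By 5 h of triptolide alone, 9 of the 10 genes in siCTU2, 9 in siGL2, 10 in mQ and 9 in pQ were lower than at 0 h, where 63.5%, 47.3%, 43.4% and 51.4% of all genes tested were lower and 1.64%, 1.1%, 1.41% and 1.28% higher. All but ETV4 were called in all 4 conditions. ETV4 stood at 88.4, 98.2 and 111% in siCTU2 and 90.2, 96.8 and 91.3% in siGL2, and under TMM scaling its change was above 0 in all 4 conditions, as was that of ETV5 in siGL2 (0.02) and pQ (0.18). DUSP6 had dropped further, to 0.505, 0.643 and 0.667% in siGL2, 0.457, 0.806 and 0.752% in pQ and 1.74, 3.83 and 1.38% in siCTU2. DUSP6 thus remained higher in all 3 siCTU2 libraries than in all siGL2 libraries. SPRY2 stood at 2.23, 3.26 and 3.43% in siCTU2 and 2.07, 3.42 and 2.17% in siGL2, where the ranges overlapped. DUSP4 stood at 5.897, 11.8 and 7.86% in siCTU2 and 8.67, 12.7 and 11.5% in siGL2, and PHLDA1 at 5.43, 7.29 and 2.87% and 5.13, 6.95 and 2.82%. The ranges of the conditions overlapped for both genes, and the difference at 5 h was not tested. SPRED1 stood at 13.7, 24.9 and 12.1% in siCTU2 against 45.98, 47.8 and 33.7% in siGL2, again without overlap, with log2 changes of -2.54 and -1.21. This difference at 5 h was not tested either. The ETV5 call was lost without replicate 2 in siGL2 (adjusted p = 0.0651) and without replicate 1 or 2 in pQ (0.0880 and 0.0738).

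In mQ at 5 h, the library that stood apart (replicate 3) held the highest remaining levels of the fast-decaying mRNAs. DUSP6 stood at 0.199, 0.571 and 13.9%, SPRY2 at 0.395, 1.03 and 20.02%, PHLDA1 at 2.61, 3.57 and 27.3% and DUSP4 at 3.31, 6.89 and 23.9%. Replicate 3 was the highest of the 3 in each, and it is among the libraries with high PTPRC and CD3E given above. Their log2 changes were -4.01, -3.64, -2.92 and -3.06 with all libraries and -8.15, -7.10, -4.97 and -4.31 without it. DUSP5 had almost run out at 5 h in the medium experiment, with 1 and 0 counts in replicates 1 and 2 of mQ and 4, 0 and 0 counts in pQ. These are at or near the floor of 3 counts, so no fold is given. Without the library that stood apart the ETV4 call in mQ was lost (-0.43, adjusted p = 0.0874). With replicate 1 of mQ left out, 4 of the 10 genes remained called, and with replicate 2 left out 1 did, SPRED1. Over all genes tested, 759 and 40 were then called, against 6082 with all libraries.

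Cycloheximide was used to ask how these mRNAs decayed while translation was also blocked. When it was present with triptolide, most of the fast-decaying mRNAs were retained. At 3 h in the TCHX arm DUSP6 stood at 51.1, 61.1 and 57.1% in siCTU2, 29.6, 38.99 and 38.1% in siGL2, 38.8, 45.8 and 46.7% in mQ and 30.9, 33.97 and 52.2% in pQ. All 12 of these libraries were far above the 12 libraries of the T arm, which lay between 0.654% and 6.58%. PHLDA1 stood between 47.4% and 69.4% in the TCHX arm against 7.19% to 21.9% in the T arm, DUSP4 between 48.2% and 66.8% against 17.1% to 34.8%, SPRY4 between 35.3% and 53.9% against 6% to 18.9%, and SPRY2 between 15.02% and 46.1% against 0.957% to 12.9%. For these 5 genes the arms did not overlap in any of the 4 conditions. The share of all genes tested whose arms were separated in this way was not computed. ETV4 (60.2% to 89.9% against 68.6% to 94.1%) and ETV5 (45.7% to 81.0% against 45.8% to 77.1%) overlapped widely between the arms.

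SPRY2, SPRY4 and SPRED1 still fell over 3 h in the TCHX arm in all 4 conditions, with log2 changes from -2.25 to -1.23 for SPRY2, from -1.20 to -0.98 for SPRY4 and from -0.80 to -0.68 for SPRED1. DUSP5 fell by 2.15 in siGL2 and 1.87 in pQ on the log2 scale, and gave -0.57 (adjusted p = 0.121) in siCTU2 and -1.99 (adjusted p = 0.0648) in mQ. In all, 4 of the 10 genes fell in siCTU2, 8 in siGL2, 6 in mQ and 9 in pQ, where 3.06%, 18.2%, 35.5% and 40.1% of all genes tested fell and 0.725%, 0.913%, 0.877% and 0.384% were higher. These numbers depended on the scale, since TMM scaling gave 1, 2, 0 and 0, and scaling to genes stable at both times gave 10 in siCTU2, so no count of falls in the TCHX arm is read further. Over all genes TMM scaling called 207, 302, 139 and 99, and genes stable at both times called 7989 of 13999 in siCTU2. Without the libraries that stood apart, 10 feedback genes were called in mQ and 10 in pQ, where 7474 of 13971 and 5903 of 13937 genes tested were called. Leaving out replicate 1 or replicate 2 ended every call of a feedback gene in siCTU2, mQ and pQ, and left 2 and 2 in siGL2, while without replicate 3 the siCTU2 count was 3. The calls over all genes fell too. In siCTU2 they went from 517 to 17 without replicate 1 and 14 without replicate 2. In the same order they went from 2531 to 108 and 110 in siGL2, 4939 to 15 and 1 in mQ, and 5478 to 39 and 42 in pQ.

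The arms were then compared directly, as TCHX minus T averaged over 3 and 5 h. This contrast uses the same T libraries as the decay above, so the 2 are not independent. DUSP4, DUSP6, SPRY4 and PHLDA1 were higher with cycloheximide in all 4 conditions, and ETV4 and ETV5 in none. The number of the 10 genes that were higher was 7 in siCTU2, 6 in siGL2, 6 in mQ and 6 in pQ, and 0 were lower, where 20.9%, 12.1%, 5.02% and 12.1% of all genes tested were higher and 0.168%, 0.543%, 0.118% and 0.450% lower. The median log2 difference of the 10 genes was 1.91 in siCTU2, 1.3 in siGL2, 1.15 in mQ and 1.60 in pQ, and that of all genes tested 0.22, 0.05, 0.05 and 0.06. TMM scaling gave 7, 6, 6 and 6 higher genes, where 2382, 1731, 1192 and 1633 of all genes tested were called in either direction. ETV4 was then lower in siCTU2 (-0.45, adjusted p = 0.0326). In pQ, ETV4 and ETV5 were lower with scaling to genes stable at both times (-0.65, adjusted p = 0.00623, and -0.45, adjusted p = 0.0458), and ETV4 without replicate 3 (-0.33, adjusted p = 0.00215).

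DUSP6 had the largest difference of the group, with log2 values of 3.31 (SE 0.22, adjusted p = 2.17e-08) in siCTU2, 3.87 (SE 0.15, adjusted p = 9.22e-11) in siGL2, 3.13 (SE 0.66, adjusted p = 0.0145) in mQ and 4.22 (SE 0.21, adjusted p = 1.14e-09) in pQ. PHLDA1 gave 2.63, 2.54, 2.31 and 2.75 in the same order, and its level hardly dropped between 3 and 5 h in the TCHX arm of siGL2 replicates 1 and 2 (55.03, 64.5 and 53.4% at 3 h and 55.7, 54.8 and 23.02% at 5 h). DUSP6, by contrast, fell in the TCHX arm of siGL2 from 29.6, 38.99 and 38.1% at 3 h to 4.68, 5.55 and 4.31% at 5 h. SPRY4 gave 2.15, 1.85, 2.21 and 1.81, and DUSP4 gave 1.86, 1.46, 1.69 and 1.39. SPRY2 was called in siCTU2 (2.09), siGL2 (2.33) and pQ (2.29) and gave 1.67 (SE 0.57, adjusted p = 0.104) in mQ. DUSP5 was called in siCTU2 (1.96), siGL2 (1.13) and pQ (2.81). The pQ value of DUSP5 is no bound, since it rests in part on 5 h T libraries at 0 counts and depends on the prior count of the fit. SPRED1 was called in siCTU2 (1.09) and mQ (0.53), and SPRED2 in mQ (0.64, adjusted p = 0.0494). The DUSP5 call in siGL2 was lost without replicate 2 (1.05, adjusted p = 0.304), at 5 h alone (0.81, adjusted p = 0.402), after subtracting the difference at 0 h (1.15, adjusted p = 0.246) and with genes stable at both times (1.07, adjusted p = 0.0699). The DUSP4 call in pQ was lost at 3 h alone (0.80, adjusted p = 0.0871). In siCTU2 the library that stood apart is in the TCHX arm at 5 h. There SPRY2 stood at 2.97, 11.3 and 31.4% and ETV5 at 28.1, 18.99 and 118%, with replicate 3 the highest in both. Without it the differences in siCTU2 were 3.16 for DUSP6, 1.56 for SPRY2 and -0.11 for ETV5, which had been 0.57 with it and did not pass the test either way.

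The mQ values rested on the library that stood apart. Without it 8 genes were higher with cycloheximide. Over all genes 2917 of 13971 tested were then called, 98.9% of them higher, against 697 of 13570 called with it. The values were 2.32 for DUSP4, 5.19 for DUSP6, 3.40 for SPRY2, 2.71 for SPRY4, 0.55 for SPRED1, 0.66 for SPRED2 and 3.33 for PHLDA1. The eighth was DUSP5, for which no fold is given, since its remaining T libraries at 5 h held 1 and 0 counts and the fitted value depends on the prior count. With it DUSP5 stood at -0.11, where its 5 h T libraries were at 0.669, 0 and 34.8% of the 0 h level. All calls of feedback genes in mQ were lost without replicate 1 or replicate 2, which leaves the library that stood apart with 1 other at 5 h, and after subtracting the difference between the arms at 0 h. Over all genes tested, 2, 1 and 1 were called in these fits, against 697 in the main fit. At 0 h itself edgeR called 0 genes between the arms, 0% of those tested, in any condition. In siCTU2, siGL2, mQ and pQ, an unadjusted p below 0.05 was reached by 155, 95, 309 and 292 genes. SPRED2 was the 1 feedback gene among these, in mQ, at 0.89 higher in the TCHX arm on the log2 scale. On the fixed lists 5, 0, 0 and 0 cascade genes and 11, 6, 3 and 8 of 18 other targets were higher with cycloheximide in siCTU2, siGL2, mQ and pQ.

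**Figure D4:**
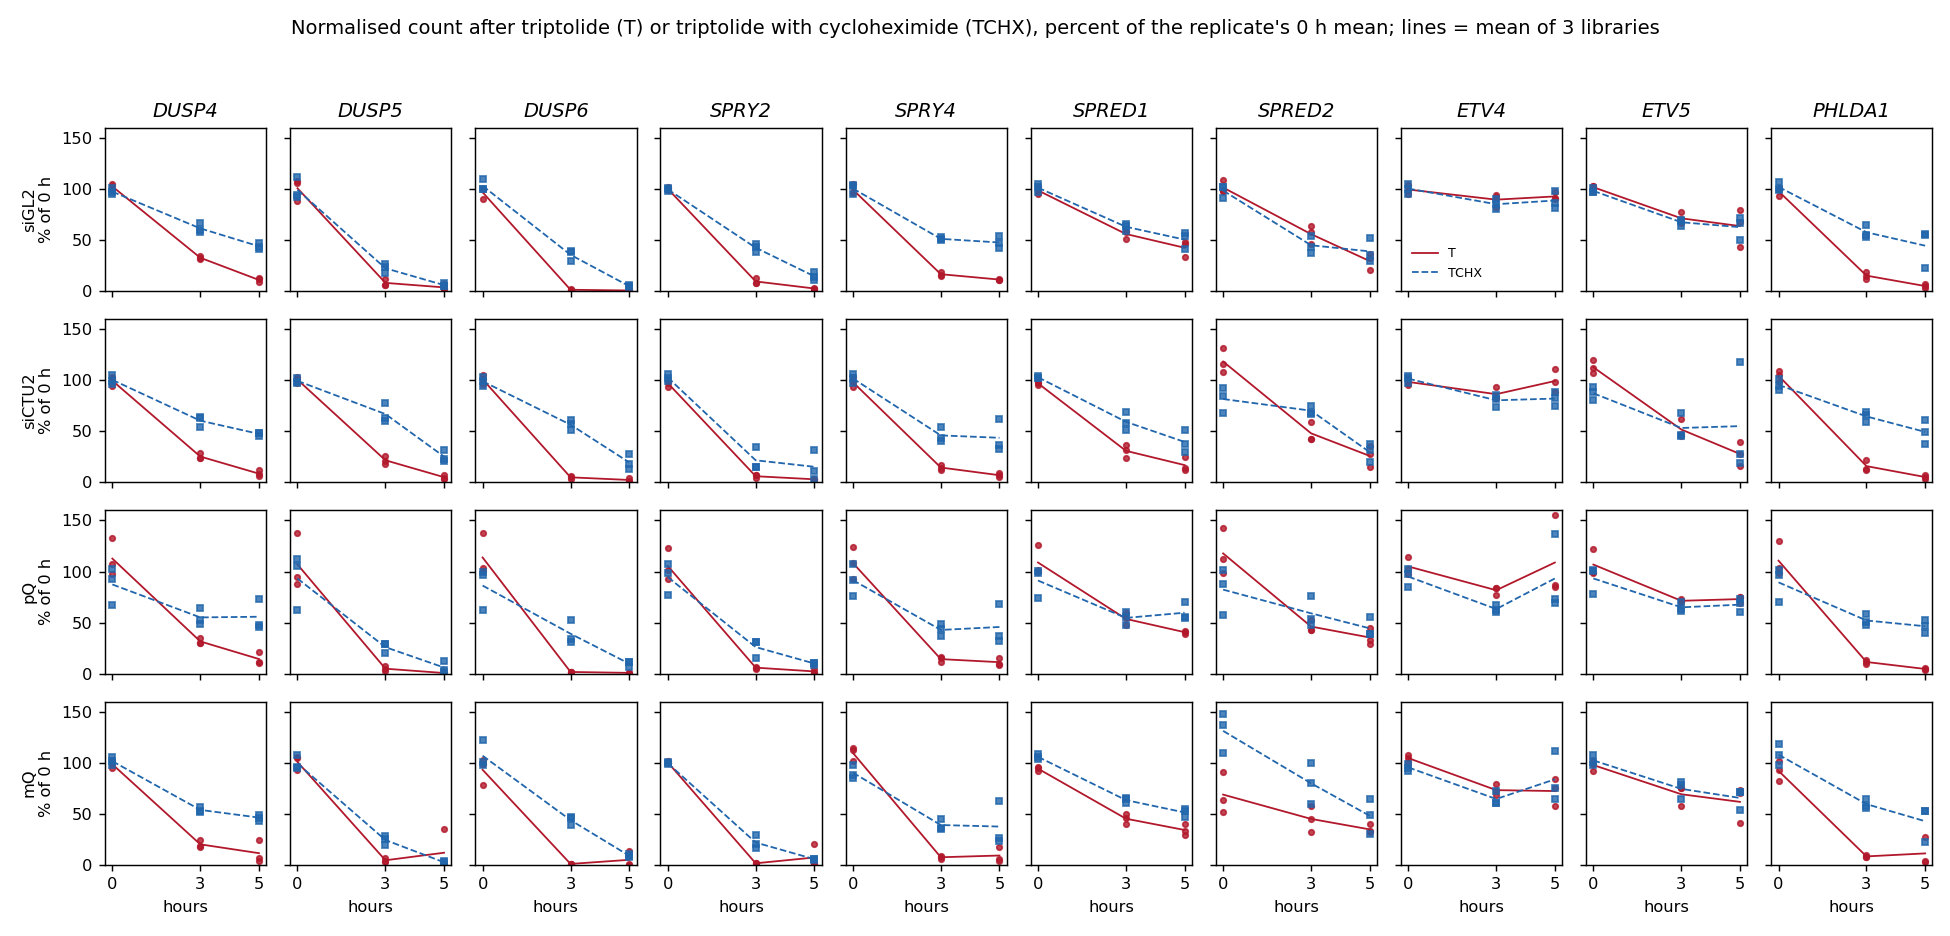
Percent of the 0 h level of each feedback gene at 0, 3 and 5 h in each condition, with triptolide alone (red circles, solid lines) and with cycloheximide (blue squares, dashed lines); points are libraries and lines join the means of 3. DUSP6, PHLDA1, DUSP4 and SPRY4 show a wide gap between the arms at 3 h in all 4 conditions, and ETV4 and ETV5 show none that passed the test. The DUSP6 gap was much narrower at 5 h in all 4 conditions. The high mQ point at 5 h with triptolide, 13.9% for DUSP6, is the library that stood apart.

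**Figure D5:**
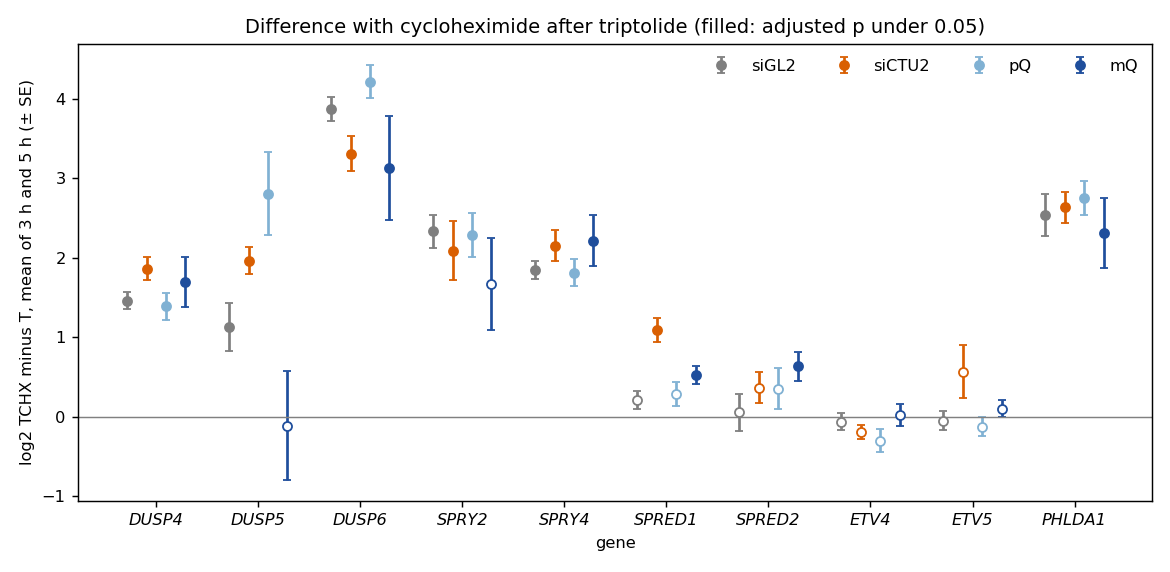
Log2 difference between the TCHX and the T arm, averaged over 3 and 5 h, for each feedback gene and condition, with bars for 1 standard error; filled points had an adjusted p under 0.05. DUSP6 reaches 3.13 to 4.22, and ETV4 lies between -0.30 and 0.02.

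Whether the conditions differed in decay or in retention was tested with interaction terms over the 36 libraries of each experiment. For retention in siCTU2 against siGL2, 1 of the 10 genes was called, SPRED1, where 0.350% of the 14266 genes tested were called in this direction and 0.0280% in the other. SPRED1 differed by 0.88 (SE 0.19, adjusted p = 0.0299) on the log2 scale, from a cycloheximide difference of 1.09 (SE 0.15, adjusted p = 4.06e-05) in siCTU2 and 0.21 (SE 0.11, adjusted p = 0.335) in siGL2. In the TCHX arm SPRED1 overlapped between the conditions at 3 h, at 58.03, 68.7 and 51.2% in siCTU2 and 59.3, 66.2 and 63.7% in siGL2. The gap at 3 h was in the T arm, where it stood at 24.3, 36.2 and 32.1% and 58.1, 58.9 and 50.8%. At 5 h it stood at 33.9 ± 5.89% in the TCHX arm of siCTU2 without the library that stood apart (mean ± SD, n = 2). In siGL2 each TCHX level at 5 h lay above the T level given earlier. A gap between the conditions in the TCHX arm at 5 h was not tested. The call was lost without the library that stood apart (0.77, adjusted p = 0.0733), without replicate 1 (0.82, adjusted p = 0.602) and without replicate 2 (1.06, adjusted p = 0.174). With TMM scaling it was 0.72 (adjusted p = 0.00728).

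For decay over 3 h of triptolide in siCTU2 against siGL2, 0 genes were called by edgeR, with 413 at an unadjusted p under 0.05 and 8 called by DESeq2, of which DUSP6 was 1. The DUSP6 difference was 1.79 (SE 0.37, adjusted p = 0.170), the slower fall being in siCTU2. It passed the threshold with DESeq2 (adjusted p = 0.00656), with TMM scaling (1.87, adjusted p = 0.00871), without a filter on low counts (adjusted p = 3.13e-04) and without the library that stood apart (adjusted p = 0.0194). It did not pass with genes stable at both times, with the replicate number as a block, or when any single replicate was left out. All 3 siCTU2 libraries lay above all 3 siGL2 libraries at 3 h and at 5 h, and the share of all genes tested that did so was not computed. DUSP5 (1.40 (SE 0.43, adjusted p = 0.973)) and SPRED1 (-0.85 (SE 0.27, adjusted p = 1.000)) were the other two with an unadjusted p under 0.05, in opposite directions.

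In mQ against pQ, 0 genes were called for retention, with 552 at an unadjusted p under 0.05 and 2 by DESeq2, and 0 for decay over 3 h, with 374 at an unadjusted p under 0.05 and 3 by DESeq2. Without the libraries that stood apart, 81 genes were called for retention, 0 of them feedback genes, and DUSP4 came closest at 0.93 (adjusted p = 0.0525). For decay the estimates of SPRY2 (-1.89 (SE 0.95, adjusted p = 1.000)) and SPRY4 (-0.97 (SE 0.52, adjusted p = 1.000)) were the lowest of the 10 and carried wide errors. Without replicate 3 the SPRY2 difference was -2.27 (adjusted p = 0.0140), and 3 feedback genes were called for retention, DUSP4 (0.89, adjusted p = 0.00389), DUSP6 (1.07, adjusted p = 0.0300) and PHLDA1 (0.82, adjusted p = 0.0160). Of 14401 genes tested, 277 were then called for decay and 296 for retention. Of the retention calls, 98.6% were higher in mQ. With all libraries DUSP6 and PHLDA1 lay on the other side of 0, at -1.09 and -0.44.

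The study's own measure, the translation-dependent decay (TDD) index, is the TCHX level minus the T level at the same time over the 0 h level, so it is 0 where the arms stand at the same level. DUSP5 had an index at 3 h of 0.453 ± 0.0680 in siCTU2 and 0.143 ± 0.0306 in siGL2 (mean ± SD, n = 3). The index of DUSP6 at 3 h was 0.516 ± 0.0323 in siCTU2 and 0.343 ± 0.0526 in siGL2, and that of SPRED1 was 0.284 ± 0.0815 and 0.0708 ± 0.0589. In each of these 3 genes the siCTU2 libraries lay above the siGL2 libraries without overlap at 3 h. The share of all genes tested that did so was not computed, and the median index over all genes at 3 h was 0.0672 in siCTU2 and 0.0182 in siGL2. At 5 h the index was 0.202 ± 0.0346 and 0.0223 ± 0.0124 for DUSP5, and 0.172 ± 0.0787 and 0.0424 ± 0.00638 for DUSP6, in siCTU2 and siGL2. SPRED1 stood at 0.161, 0.131 and 0.389 in siCTU2 at 5 h, the last in the library that stood apart, and at 0.0799 ± 0.0243 in siGL2. By a linear model per gene, with terms for time and replicate, DUSP5 differed by 0.24 (SE 0.03, unadjusted p = 8.71e-05, adjusted p = 0.163), DUSP6 by 0.15 (SE 0.02, unadjusted p = 3.64e-04, adjusted p = 0.210), SPRED1 by 0.18 (SE 0.05, unadjusted p = 0.0114, adjusted p = 0.491) and DUSP4 by 0.06 (SE 0.02, unadjusted p = 0.0423, adjusted p = 0.607). The median difference over all genes tested was 0.0697, and 46.4% of them lay below the value of DUSP4, 76.3% below DUSP6, 82.2% below SPRED1 and 90.01% below DUSP5. These 4 of the 10 genes were higher in siCTU2 at an unadjusted p of at most 0.05, where 7.28% of the 12288 genes tested were, and 0 passed the adjusted threshold. The DUSP4 and SPRED1 calls were lost without replicate 1 (unadjusted p = 0.271 and 0.0681) or replicate 2 (0.153 and 0.0571). That of DUSP4 was also lost with TMM scaling (0.0254, unadjusted p = 0.535), with genes stable at both times (unadjusted p = 0.0886) and with each arm over its own 0 h library (unadjusted p = 0.0714). In mQ against pQ, ETV5 alone passed, at 0.10 (SE 0.03, unadjusted p = 0.00422, adjusted p = 0.727), where 3.48% of the 12428 genes tested did, and it turned to -0.0284 when separate 0 h levels were taken for the T and TCHX arms. PHLDA1 had high indices at 3 h in all conditions, of 0.487 ± 0.0301 in siCTU2, 0.425 ± 0.0327 in siGL2, 0.512 ± 0.0337 in mQ and 0.407 ± 0.0710 in pQ, beside a median over all genes of 0.0672, 0.0182, 0.0698 and 0.0243.

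The genes whose pattern over the 24 group means was most like the mean profile of the 10 were ASB7 (r = 0.978), IRS2 (0.976), SOWAHC (0.973), RBM15 (0.973) and C2orf49 (0.970), by Pearson's r of log2(CPM + 1) among 8485 candidates. These values describe 24 groups that share the inhibitors and the time points. Within the group, the r of each gene to that mean was 0.94 for SPRY2, 0.93 for DUSP4, DUSP6 and PHLDA1, 0.92 for SPRY4, 0.78 for SPRED2, 0.76 for SPRED1, 0.73 for DUSP5, 0.30 for ETV5 and -0.33 for ETV4. Both ETS factors thus followed the group least.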

How the data were processed

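Cytoplasmic RNA of A375 cells was measured in 72 QuantSeq libraries. Per the study's methods and the submitters' processing notes, the authors trimmed reads (fastp 0.20.1), mapped them to GRCh38.p13 (HISAT2 2.2.1) and counted them per gene with the NCBI annotation (HTSeq 0.13.5). The deposited values are raw counts per gene; 15166 of the 44659 names had 0 counts in all libraries. No molecular identifiers were stated, so errors cover counting and replicate spread of reads, not of molecules. ERCC standards added to the RNA were not used here. All sample columns matched a title, and 0 were left over. Groups and replicate numbers came from the titles. No pair of replicates agreed within sampling noise. At 5 h, replicate 3 differed more from replicates 1 and 2 than these did from each other, in every condition and arm. The chi-square per gene, larger where counts differ more, was 8.95 between replicates 1 and 2 of siGL2 T at 5 h. With replicate 3 it was 99.5 and 96.5. In siCTU2 TCHX at 5 h the contrast was smallest, at 33.2 against 43.0 and 45.9. This shift enters all 5 h values, and its cause was not tested.

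In R 4.3.3, the T arm at 0 h was compared between conditions with edgeR 4.0.16 (filterByExpr, TMM, quasi-likelihood F-test, 6 libraries). Changes over time and between arms were fitted in the 18 libraries of a condition, and interactions in 36, after scaling to stable genes, after the study's methods. Stable genes had a 0 h CPM over 0.2, a CPM at 3 h or 5 h of at least 1.1 times the 0 h value, and a 0 h CPM over 0.1 times the later one. The siRNA experiment gave 198 (197 used) and the medium experiment 82 (81 used). P-values were adjusted over all genes tested, with a threshold of 0.05. TDD indices were fitted with a linear model per gene (12 values; genes with a normalised 0 h count of at least 10). Examples of each kind of fit were tested on simulated data. These were the 0 h level and TDD index in siCTU2 against siGL2, decay at 3 h and cycloheximide in siGL2, and retention in mQ against pQ. The other comparisons and the DESeq2 fits were not simulated. Alternatives were DESeq2 1.42.0, no filter, other scalings, the other arm, a replicate block, and leaving out each replicate or, except for TDD indices, the 3 libraries that stood apart. The comparison of the arms at 0 h and the fits without those 3 libraries were chosen after seeing the data. Same-numbered libraries deviated together (r above 0.1 in every pair) at 0 h in the siRNA experiment (0.104 to 0.304), at 3 h of triptolide in siCTU2, siGL2 and pQ, in the TCHX arm at 3 h in siGL2, mQ and pQ, and between the arms in pQ; the labels do not say what the numbers mark. Positions and 3′ UTRs are from GENCODE (GRCh38).

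The genes and lists were chosen with earlier results of these data known. The text names the 10 genes, CTU2, the 5 genes nearest in profile (mean 0 h CPM of at least 10), markers, and from each list the gene with the largest rise and fall past the threshold at 0 h.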

Additional observations from a re-analysis of the deposited data

Results flagged for a closer look

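The cycloheximide difference of SPRED1, which encodes an inhibitor of RAS activation, differed between siCTU2 and siGL2 by 0.88 on the log2 scale (SE 0.19, edgeR adjusted p = 0.0299), by a test of the difference itself. It is listed because 2 conditions differed under the same contrast. All 3 siCTU2 libraries lay below all 3 siGL2 libraries with triptolide alone at 3 h and at 5 h. The difference in decay over 3 h did not pass its own test, and the share of all genes separated in this way was not computed. The library labelled siCTU2 TCHX 5 h replicate 3, in which PTPRC and CD3E were high, enters the cycloheximide difference, and without it the value was 0.77 (adjusted p = 0.0733). Groups of 3 were not searched for single deviating libraries in the values of these genes. Over all genes, replicate 3 deviated at 5 h, as given above.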

How the results depend on the processing

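Of 240 counts of called feedback genes recomputed under other settings, 198 stayed within 1.5 times of the reported count. Of 2250 values of single genes, 1974 kept their direction and their side of the threshold, 179 lost the call, 76 gained it and 21 changed direction. For the changes that follow, the cause was not tested unless the setting itself removes libraries or genes.

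In the TCHX arm at 3 h, TMM scaling gave 1 called gene in siCTU2 (reported 4), 2 in siGL2 (8), 0 in mQ (6) and 0 in pQ (9). Genes stable at both times (8 in the siRNA and 3 in the medium experiment) gave 10 in siCTU2, and leaving out the libraries that stood apart gave 10 in mQ. Leaving out 1 replicate gave 0 to 3, 2 to 9, 0 to 10 and 0 to 10. The calls over all genes tested also fell without replicate 1 or 2, as given earlier. For triptolide alone in mQ, TMM scaling gave 6 at 3 h and 6 at 5 h (reported 10 and 10), and leaving out 1 replicate gave 1 to 10 at 5 h. Cycloheximide in mQ (reported 6) gave 2 at 3 h alone, 0 at 5 h alone, 0 after subtracting the 0 h difference and 0 to 8 without 1 replicate. The arms at 0 h in mQ (reported 0) gave 0 to 1.

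Retention in siCTU2 against siGL2 (reported 1) gave 0 with genes stable at both times, 0 without the library that stood apart and 0 to 1 without 1 replicate. Decay in siCTU2 against siGL2 (reported 0) gave 1 with TMM scaling, 1 without a filter, 1 with DESeq2 and 1 without that library. In mQ against pQ, retention (reported 0) gave 2 without a filter and 0 to 3 without 1 replicate, and decay (reported 0) gave 1 and 0 to 1. Over all genes tested, 296 and 277 were called without replicate 3. The TDD counts were 2 to 5 without 1 replicate in siCTU2 (reported 4) and, in mQ (reported 1), 0 with TMM scaling, 4 with genes stable at both times and 1 to 4 without 1 replicate.

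Directions changed in few values. SPRED2 at 0 h in mQ was 0.46 in the TCHX arm and 0.14 there without the library that stood apart. With TMM scaling ETV4 gave 0.22 at 3 h and 0.12 at 5 h in mQ, 0.66 at 5 h in siGL2 and 0.0467 in the TCHX arm of mQ; ETV5 gave 0.0224 at 5 h in siGL2, 0.22 at 3 h in mQ, 0.14 in the TCHX arm of mQ, and 0.12, 0.18 and 0.0461 in pQ at 3 h, 5 h and in the TCHX arm; SPRED2 gave 0.0688 at 3 h in mQ. ETV4 at 5 h in siCTU2 was -0.51 with genes stable at both times. The cycloheximide difference in mQ was 2.59 for DUSP5 without the library that stood apart and -0.42 to 2.14 without 1 replicate (values that depend on the prior count, since T libraries at 5 h held 1 and 0 counts), and -0.26 for SPRED2 after subtracting the 0 h difference. The retention difference between mQ and pQ ran from -1.42 to 1.07 for DUSP6 and from -0.87 to 0.82 for PHLDA1 without 1 replicate. The TDD difference in mQ was -0.46 for SPRED2 and -0.0284 for ETV5 with each arm over its own 0 h library.

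Over all genes, the number called at 3 h of triptolide was 5071, 3902, 7596 and 7513 in siCTU2, siGL2, mQ and pQ, 1279, 1259, 981 and 1224 with TMM scaling and 8220, 8426, 11532 and 10519 with genes stable at both times. The share of these calls that was higher went from 3.00%, 3.33%, 1.79% and 1.69% to 16.9%, 13.7%, 19.0% and 15.6% with TMM scaling. For cycloheximide it went from 99.2%, 95.7%, 97.7% and 96.4% to 76.8%, 79.7%, 84.3% and 87.0%, and to 34.3% in pQ with genes stable at both times.

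With the replicate number as a block, where the numbers pair the libraries, SPRED2 at 3 h in siGL2 was called (-0.87, adjusted p = 0.00218), as were PHLDA1 (-0.84, 0.0160) in the TCHX arm of siGL2, where the count over all genes went from 2531 to 4771, and DUSP5 (-2.09, 0.0395) in that of mQ. In comparisons where the numbers did not pair all libraries, the block gave SPRY2 a call for cycloheximide in mQ (1.97, 0.0361) and ended that of SPRED2 (0.0535) and that of SPRED2 at 0 h in mQ (0.0557). It changed no other call of these genes. Depth limits DUSP5 at 5 h of triptolide alone in the medium experiment, where 5 libraries held 0 to 4 counts and the library that stood apart 119.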
